A study of Bos taurus with 31 samples.

Results

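Lipoprotein lipase (LPL) was followed in the liver of 31 bovine fetuses, as 1 gene (identifier ENSBTAG00000012855) of 27607 in a table of RNA sequencing counts. The gene was selected on its difference by maternal gain in these same counts, being lower in fetuses of faster-gaining dams, so its levels by maternal gain are given as a description, without a test. The contrast that selected it averaged the difference by gain over supplementation; the response of LPL to supplementation and its covariation with other genes within groups were tested.

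The fetuses were female, were collected on day 83 of gestation and were carried by Angus-cross heifers, all inseminated from 1 bull. In the VTM_MG group (n = 7) the dams received both a vitamin and mineral premix and an extra energy and protein supplement. In NoVTM_MG (n = 8) they received the energy and protein supplement alone, in VTM_LG (n = 8) the premix alone, and in NoVTM_LG (n = 8) neither. The premix was given in 0.45 kg of ground corn and premix per heifer and day, from 71 to 148 days before insemination until collection. The energy and protein supplement, a blend that also held fish oil and urea, was fed from breeding for a moderate gain (MG) of 0.79 kg per day, whereas LG dams stayed on the basal ration for a low gain of 0.28 kg per day. All dams ate the same basal mixed ration. MG and LG thus differed in a feed as well as in a rate of gain, and these cannot be told apart. Breeding group is not given per sample, and its part in the results was not tested.

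LPL is the enzyme that splits triglycerides carried in chylomicrons and very low density lipoproteins, releasing fatty acids for the tissue around it. It is made by parenchymal cells and macrophages, is carried to the capillary surface by GPIHBP1, needs apolipoprotein C-II as its cofactor and is held back by angiopoietin-like proteins. In rodents the liver makes LPL before and shortly after birth, and the adult liver makes little. In bulk tissue, fewer cells of a type that makes LPL and less LPL RNA per cell cannot be told apart. Markers of hepatocytes, macrophages and other liver cells could not be examined, because the table names no genes.

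Library totals ranged from 13062894 to 18458776 counts. LPL was counted in every library, with 219 to 733 counts and 12800 in all, or 0.0028% of all counts. The coefficient of variation that counting alone gives at these depths was 5.15% for LPL, below the spread between fetuses in each of the 4 groups. Along the first principal component of log2 CPM (counts scaled to library size, in the usual CPM unit), VTM_LG replicate 4 lay at 63.0 and VTM_LG replicate 7 at 37.9, far from the other libraries. Results that rest on them are given with and without them where both were taken.

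In VTM_MG livers LPL had a lowest value of 18.4, a median of 22.0 and a highest value of 30.0 CPM, after TMM scaling of the libraries. In NoVTM_MG livers the lowest, median and highest values were 14.9, 22.1 and 28.1 CPM. In VTM_LG livers they were 20.5, 31.0 and 40.0 CPM. In NoVTM_LG livers they were 24.6, 33.7 and 50.6 CPM. The MG groups had nearly the same median and overlapping ranges, and both LG groups reached higher. Within NoVTM_LG the values fell into 5 livers of 24.6 to 33.7 CPM and 3 livers of 45.9 to 50.6 CPM, with no liver between.

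**Figure D1:**
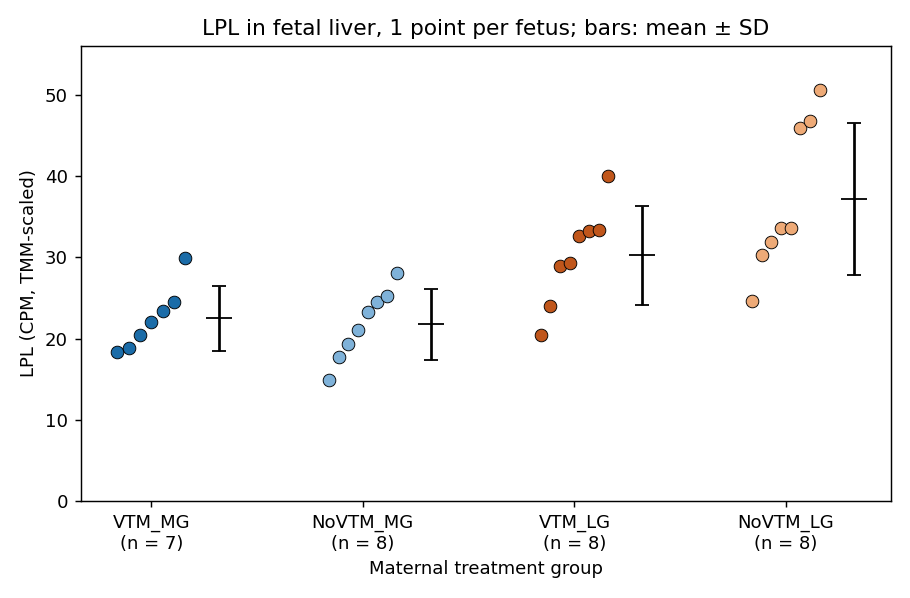
LPL in each fetal liver (vertical axis, TMM-scaled CPM) by maternal treatment group (horizontal axis), with 1 point per fetus in order of value and the group mean ± SD beside it. The 15 MG livers lie between 14.9 and 30.0 CPM and the 16 LG livers between 20.5 and 50.6 CPM, and 3 NoVTM_LG livers stand above all others.

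Group means were 22.5 ± 3.98 CPM in VTM_MG (SD, n = 7), 21.8 ± 4.33 CPM in NoVTM_MG (SD, n = 8), 30.2 ± 6.06 CPM in VTM_LG (n = 8), and in NoVTM_LG 37.2 ± 9.32 CPM (n = 8). The order of LPL levels from high to low was therefore NoVTM_LG, VTM_LG, VTM_MG, NoVTM_MG. The neighbours VTM_MG and NoVTM_MG differed by less than the SD of either group. The neighbours VTM_LG and NoVTM_LG differed by 18.6% of the NoVTM_LG mean, less than the SD of NoVTM_LG but more than that of VTM_LG. VTM_MG and VTM_LG overlapped as well, and 4 of 8 VTM_LG livers lay above every VTM_MG liver. The relative spread of LPL, as coefficient of variation, was 17.7% in VTM_MG, 19.9% in NoVTM_MG, 20.0% in VTM_LG and 25.1% in NoVTM_LG.

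LPL varied more between fetuses of a group than most genes counted at a like depth. Its biological coefficient of variation in the edgeR fit was 19.4%, where the trend over all genes at its abundance was 13.7%. Its SD within groups was 0.31 on the log2 CPM scale, against a median of 0.17 over the 1000 genes nearest to it in CPM, and 94.4% of those genes had a smaller SD. Of the variance of LPL log2 CPM over the 31 livers, 48.3% lay between levels of gain, 1.98% between levels of supplementation after gain, and 4.05% in their interaction. The remainder lay between fetuses of the same group.

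The contrast of gain averaged over supplementation was the one that chose the gene. LPL was 1 of 3 genes that passed there at an adjusted p under 0.05 in edgeR, all lower in MG, which was 0.0211% of 14228 genes tested. LPL averaged 22.1 ± 4.04 CPM in MG (SD, n = 15) and 33.7 ± 8.40 CPM in LG (SD, n = 16). All 15 MG livers were below the LG median, and 11 of 16 LG livers were above every MG liver. Of the 240 pairs of an MG and an LG liver, LPL was lower in the MG liver in 221. The fitted log2 fold change of MG over LG was -0.60 (SE 0.10), a ratio of 0.66.

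The difference by gain at each level of supplementation, a part of the contrast that chose the gene, is likewise a description. NoVTM_MG livers had a mean ratio of 0.585 to NoVTM_LG livers, and 62 of 64 pairs were lower in NoVTM_MG. VTM_MG livers had a mean ratio of 0.744 to VTM_LG livers, and 48 of 56 pairs were lower in VTM_MG. The fitted log2 fold changes were -0.77 (SE 0.14) without supplementation and -0.43 (SE 0.15) with it. The 3 highest LPL values of all livers were in NoVTM_LG.

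The difference between these sizes, the interaction of gain and supplementation, did not pass. It and the low-gain comparison of supplementation draw on the same LG livers as the contrast that chose the gene. The gain effect on LPL with supplementation minus that without was 0.35 on the log2 scale (SE 0.20, 95% interval -0.07 to 0.76, edgeR adjusted p = 0.542). In that contrast 0% of genes passed after adjustment, and 10.7% had an unadjusted p under 0.05. As a ratio of the gain ratios this interval runs from 0.953 to 1.69, so a weaker difference by gain with the premix could not be told from an equal one. Without VTM_LG replicates 4 and 7 the interaction was 0.26 (edgeR adjusted p = 0.862).

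**Figure D2:**
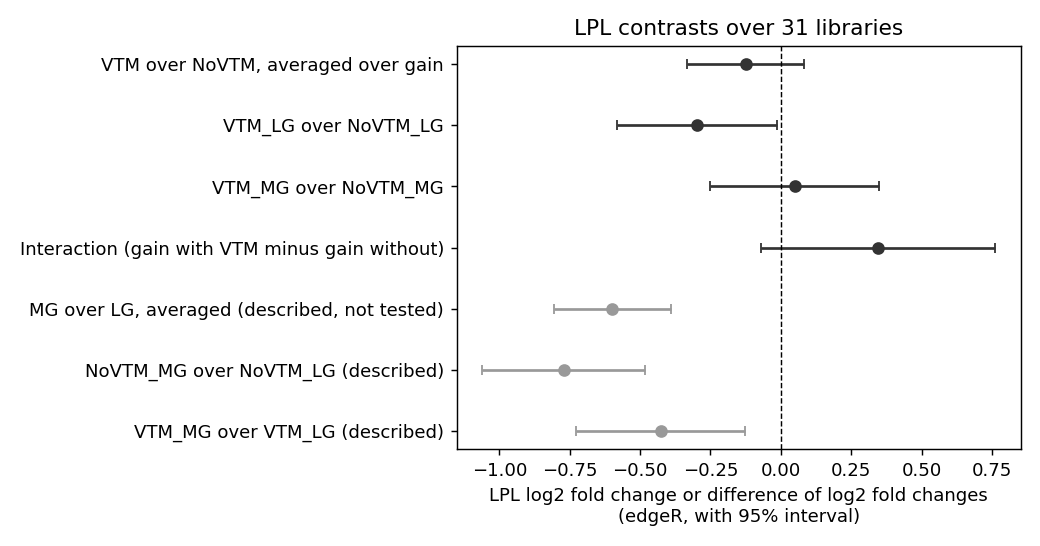
Fitted log2 fold changes of LPL, or for the interaction the difference of 2 such changes, with 95% intervals from edgeR over 31 libraries (horizontal axis), 1 row per contrast. The supplementation contrasts and the interaction (dark) were tested and did not pass after adjustment. The 3 gain contrasts (grey), that is, the average that chose the gene and its parts at each level of supplementation, lie between -0.77 and -0.43 as a description. Because the gene was chosen on these values, the distance of the grey intervals from 0 is not a test.

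No effect of supplementation on LPL passed the threshold. At low gain, 7 of 8 VTM_LG livers were below the NoVTM_LG median, and 48 of 64 pairs were lower in VTM_LG. The log2 fold change of VTM_LG over NoVTM_LG was -0.30 (SE 0.14, 95% interval -0.58 to -0.01, edgeR adjusted p = 0.601). In that contrast 0% of genes passed after adjustment, while 8.25% had an unadjusted p under 0.05, LPL among them. An exact permutation test of LPL log2 CPM between the 8 VTM_LG and 8 NoVTM_LG livers gave p = 0.112 (two-sided).

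The low-gain difference of LPL varied in size, and kept its sign, when single livers of either group were left out. VTM_LG replicate 4, which stood apart on the first principal component, had the lowest LPL of its group, 20.5 CPM. Without it the log2 fold change was -0.24, and without it and VTM_LG replicate 7 it was -0.22 (edgeR adjusted p = 1.00). On the other side, NoVTM_LG replicate 1 had the highest LPL of all livers, 50.6 CPM, and leaving it out also gave -0.22. Leaving out NoVTM_LG replicate 7, the lowest of its group at 24.6 CPM, gave -0.37. The adjusted p in edgeR was at least 0.343 in every fit that left out 1 library.

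At moderate gain, LPL was 1.03-fold in VTM_MG relative to NoVTM_MG, with a 95% interval of 0.839 to 1.28 (log2 fold change 0.05, SE 0.15, edgeR adjusted p = 0.983). Of 56 pairs, 26 were lower in VTM_MG, and the ranges overlapped, at 18.4 to 30.0 CPM in VTM_MG and 14.9 to 28.1 CPM in NoVTM_MG. In that contrast 0% of genes passed after adjustment and 4.57% had an unadjusted p under 0.05. The interval leaves room for a rise or a fall of LPL of about the size of its SD between fetuses. The sign of this small difference turned when VTM_MG replicate 1 (30.0 CPM) or NoVTM_MG replicate 7 (14.9 CPM) was left out.

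Averaged over gain, LPL was 26.6 ± 6.41 CPM in VTM (SD, n = 15) and 29.5 ± 10.6 CPM in NoVTM (SD, n = 16). The log2 fold change was -0.12 (SE 0.10, 95% interval -0.33 to 0.08, edgeR adjusted p = 1.00). In linear terms the ratio was 0.918, with an interval of 0.795 to 1.06. In that contrast 0% of genes passed after adjustment, and 2.90% had an unadjusted p under 0.05. Without VTM_LG replicates 4 and 7 the log2 fold change of LPL was -0.08 (edgeR adjusted p = 0.999).

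**Figure D3:**
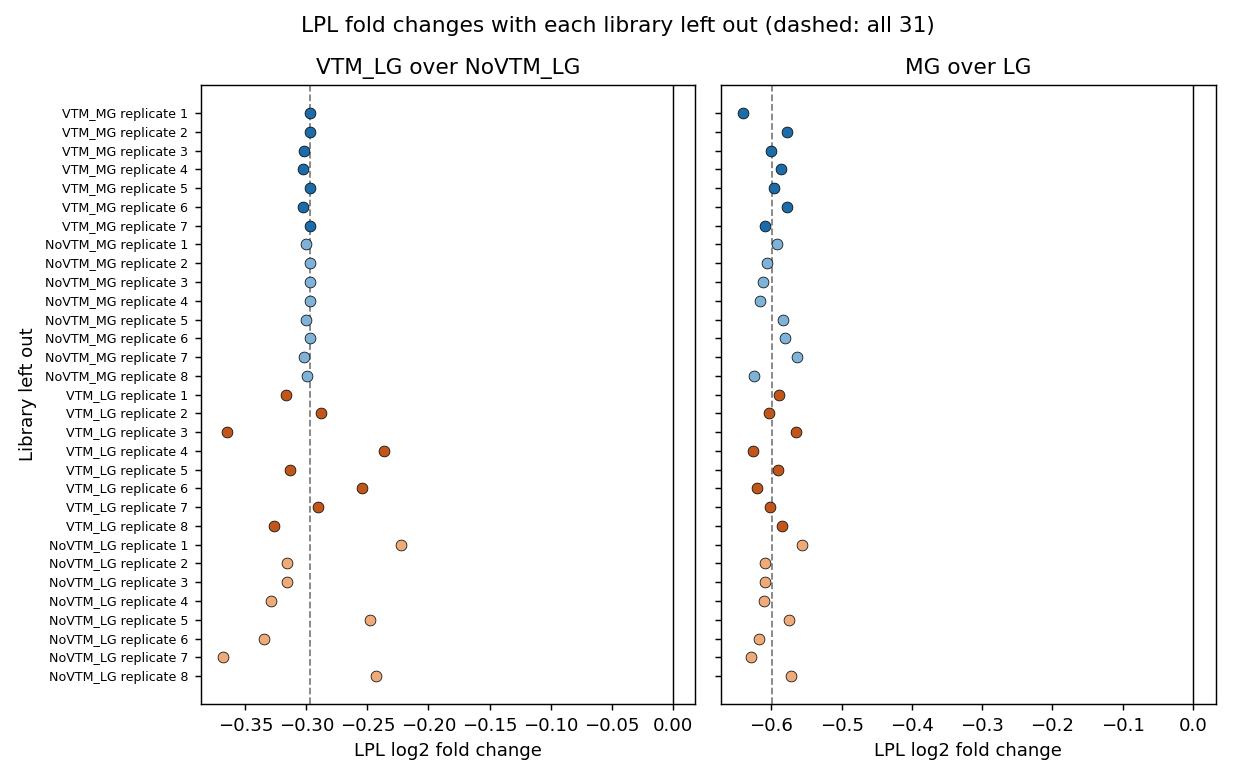
LPL log2 fold change of VTM_LG over NoVTM_LG (left) and of MG over LG (right), each point from a fit without the library named on the vertical axis; the horizontal axes differ in scale. The low-gain values run from -0.37 to -0.22, and the gain values, given as a description, from -0.64 to -0.56.

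Within groups, LPL was compared with every other gene tested, after the group mean had been taken from each log2 CPM value. Over 14227 genes the correlation with LPL had a median of -0.0025 and an SD of 0.24, and ran from -0.70 to 0.72 over 31 livers. In edgeR, 0 genes had a slope on LPL that passed in either direction (0% positive, 0% negative), and the smallest adjusted p was 0.0769. At an unadjusted p under 0.05 there were 758 positive (5.33%) and 987 negative genes (6.94%). DESeq2 called 6 positive and 7 negative genes, adjusting over only the genes that its own filtering kept. With a quality weight for each library, limma voom called 0 of either.

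The count of genes at an unadjusted p under 0.05 for the slope on LPL depended on 1 library. It was 1745 of the genes tested with all libraries (12.3%), 774 in a fit without VTM_LG replicate 4 (5.45%), and 1583 to 2070 in fits that left out any other single library. Genes with a correlation above 0.5 numbered 146 with all libraries and 87 without VTM_LG replicates 4 and 7, and those below -0.5 numbered 188 and 80. The correlation of LPL with the first principal component within groups did not pass after adjustment (Pearson r = -0.42, permutation p = 0.0172, adjusted over 5 library measures 0.0861; Spearman rho = -0.39, permutation p = 0.0253, adjusted 0.127). Without VTM_LG replicates 4 and 7 r was -0.28 (permutation p = 0.127) and rho -0.36 (permutation p = 0.0579). Without the livers farthest from the LPL median, NoVTM_LG replicate 7 and VTM_LG replicate 4, r was -0.22. Total counts had an r of -0.16 with LPL, the second component -0.08, the share of the 10 most abundant genes 0.12 and the number of genes detected 0.19, with permutation p-values of at least 0.318; their rho lay between -0.22 and 0.21, with permutation p-values of at least 0.269.

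The genes whose pattern was most like that of LPL, or most opposed to it, are given by identifier, 2 in each direction. They were picked as extremes among those of the 14227 genes that averaged at least 1 CPM. The permutation p-values of their correlations, and their r in single groups, come from the livers that picked them and are descriptions. The edgeR adjusted p is the test. The files do not annotate them, and their function is not stated.

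ENSBTAG00000050920 had the highest correlation with LPL within groups, with r = 0.72 and rho = 0.69 over 31 livers (permutation p = 5e-05 and 0.00013). Its levels were low, with means of 4.36 CPM in VTM_MG, 3.88 in NoVTM_MG, 3.45 in VTM_LG and 3.96 in NoVTM_LG. Within single groups r was 0.48 in VTM_MG, 0.86 in NoVTM_MG, 0.71 in VTM_LG and 0.73 in NoVTM_LG. The sign was thus the same in all 4 groups, but these make up the r that picked the gene. Without VTM_LG replicates 4 and 7 its r was 0.72. The gene did not pass in edgeR (slope 0.73 log2 CPM per log2 CPM of LPL, SE 0.15, adjusted p = 0.140), nor without those libraries (adjusted p = 0.284). DESeq2 gave no adjusted p for this gene.

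ENSBTAG00000031358 came next, with r = 0.69 and rho = 0.65 (permutation p = 0.00013 and 0.00034). It averaged 49.6 ± 6.50 CPM in VTM_MG, 43.5 ± 5.16 in NoVTM_MG, 42.6 ± 6.51 in VTM_LG and 52.2 ± 6.50 in NoVTM_LG (SD). Its r was 0.88 in VTM_MG, 0.45 in NoVTM_MG, 0.89 in VTM_LG and 0.60 in NoVTM_LG, and 0.63 over all groups without VTM_LG replicates 4 and 7 (slope 0.37, edgeR adjusted p = 0.454). The same liver, VTM_MG replicate 1, held the highest value of both LPL and this gene in VTM_MG. It did not pass in edgeR (slope 0.42, SE 0.09, adjusted p = 0.140) and passed in DESeq2 (adjusted p = 0.0065).

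ENSBTAG00000015182 was the gene most opposed to LPL, with r = -0.70 and rho = -0.64 (permutation p = 5e-05 and 0.00022). It averaged 92.3 ± 10.9 CPM in VTM_MG, 101 ± 20.7 in NoVTM_MG, 105 ± 20.5 in VTM_LG and 98.3 ± 16.8 in NoVTM_LG (SD). Its r was -0.64 in VTM_MG, -0.80 in NoVTM_MG, -0.78 in VTM_LG and -0.60 in NoVTM_LG. The gene was opposed to LPL in all 4 groups, which make up the r that picked it. Its edgeR slope was -0.57 (SE 0.10, adjusted p = 0.0769), the smallest adjusted p of all genes. It passed in 6 of the 31 fits that left out 1 library, in DESeq2 (adjusted p = 0.0016) and in edgeR with no filter on low counts (adjusted p = 0.0335). It did not pass in limma voom (adjusted p = 0.172) or in edgeR with the first principal component added (adjusted p = 0.444). Without VTM_LG replicates 4 and 7 its edgeR adjusted p was 0.284 and its r -0.65. Without the pair of livers farthest from the LPL median its r was -0.58.

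ENSBTAG00000006517 had r = -0.69 and rho = -0.63 (permutation p = 7e-05 and 0.0003). Its means were close together, at 37.0 ± 2.85 CPM in VTM_MG, 39.3 ± 2.99 in NoVTM_MG, 41.0 ± 5.17 in VTM_LG and 37.3 ± 2.88 in NoVTM_LG (SD). The relation was uneven, with r = -0.35 in VTM_MG, -0.51 in NoVTM_MG, -0.86 in VTM_LG and -0.88 in NoVTM_LG; the difference between MG and LG was not tested. It did not pass in edgeR (slope -0.29, SE 0.07, adjusted p = 0.162) and passed in DESeq2 (adjusted p = 0.0256). VTM_LG replicate 4 was its highest library relative to the group mean, by 0.34 on the log2 scale. Without VTM_LG replicates 4 and 7 its r was -0.64 and its slope -0.23 (edgeR adjusted p = 0.639).

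**Figure D4:**
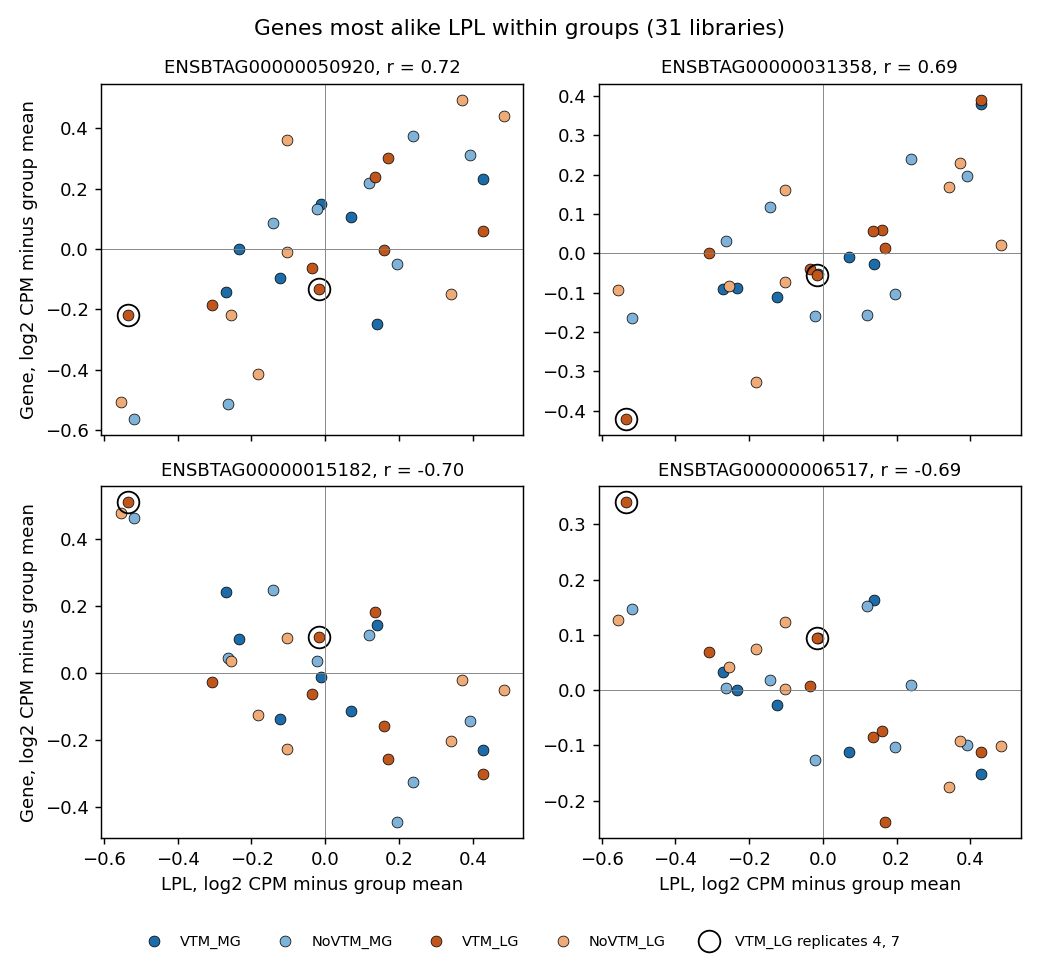
LPL (horizontal axes) against each of the 4 genes most like or most opposed to it (vertical axes), both as log2 CPM minus the group mean, with 1 point per liver coloured by group and VTM_LG replicates 4 and 7 ringed. The correlations over 31 livers are 0.72, 0.69, -0.70 and -0.69, and VTM_LG replicate 4 lies at the edge of 3 of the panels.

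The correlations with LPL were also taken separately at each level of gain, where no gene passed in edgeR (0 in the 15 MG livers and 0 in the 16 LG livers, with 614 and 1895 genes at an unadjusted p under 0.05, or 4.47% and 13.8%). The LG livers included VTM_LG replicates 4 and 7, and the LG count was not taken without them. Over all groups, leaving out VTM_LG replicate 4 alone lowered the count from 1745 to 774, so the MG and LG counts cannot be compared directly. Gene by gene, the correlation between r in MG and r in LG was 0.12 across 14227 genes, and 0.01 without VTM_LG replicates 4 and 7. Between VTM and NoVTM livers it was 0.22, with VTM_LG replicates 4 and 7 among the VTM livers, and it was not taken without them. These are values across genes, which are not independent of each other, and no library is shared between the sets compared.

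**Figure D5:**
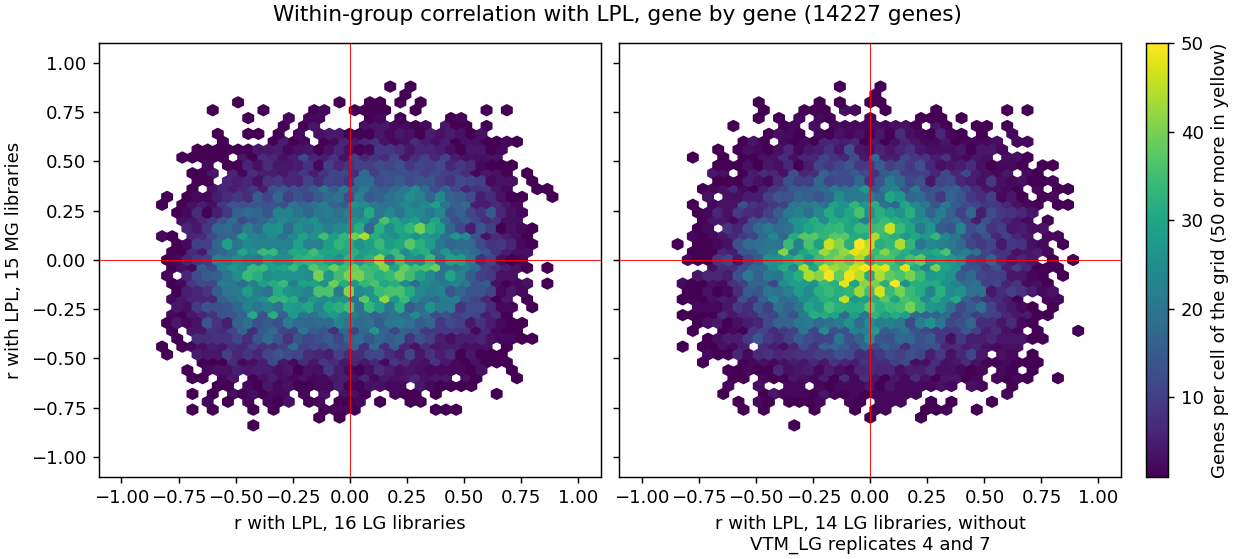
Correlation of each gene with LPL in the 15 MG livers (vertical axis) against that in the LG livers (horizontal axis), with all 16 LG livers (left) and without VTM_LG replicates 4 and 7 (right); colour gives the number of genes in each cell of the grid. The correlation across genes is 0.12 on the left and 0.01 on the right, a cloud with hardly any slope.

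The other genes that passed for gain were not shown to follow LPL from fetus to fetus. ENSBTAG00000055207 had medians of 283 CPM in VTM_MG, 244 in NoVTM_MG, 354 in VTM_LG and 370 in NoVTM_LG. Its r with LPL within groups was 0.27 (permutation p = 0.173; rho = 0.25, permutation p = 0.205; adjusted over these 2 genes 0.346 and 0.41). By group, r was 0.31 in VTM_MG, -0.38 in NoVTM_MG, -0.10 in VTM_LG and 0.83 in NoVTM_LG. The third gene lower in MG had an r of 0.13 with LPL (permutation p = 0.504; rho = 0.12, permutation p = 0.518). Where group means were left in the data, 15 genes had a positive slope on LPL that passed in edgeR and 0 a negative one, a count that contains the difference by gain which chose LPL.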

How the data were processed

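Liver RNA of 31 fetuses was sequenced as strand-specific libraries read in pairs, per the labels' protocols. The deposited values are raw counts per Ensembl gene identifier, whole numbers that had not been normalized. The submitters' processing notes name CASAVA, FastQC 0.11.8, MultiQC 1.9, STAR 2.7.3a and edgeR. Not given in the sources used here are the genome build, the annotation release, the read counter and its strand setting.

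Columns were matched to samples by title, and groups were taken from the treatment label. Replicate numbers only name libraries. The table does not pair identifiers with symbols, and 0 identifiers matched the reference table of 37063 genes, so the name lipoprotein lipase for its row was taken as given. For the same reason 25 gene lists (LPL cofactors, lipid genes and cell type markers) could not be run, other genes are given by identifier only, and overlap with similar genes could not be checked. The gene, the lists and the tests were chosen with earlier results of these data known.

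Counts were filtered with filterByExpr (minimum count 10, minimum total 15), scaled by TMM and fitted with edgeR 4.0.16 (quasi-likelihood, R 4.3.3), with 1 mean per group over 31 libraries. In edgeR and limma, p-values were adjusted over all tested genes (Benjamini-Hochberg) and called under 0.05. In DESeq2 they were adjusted over only the genes that its own filtering kept, so the adjusted values are not like for like. Covariation was the slope on the log2 CPM (prior count 2) of LPL, added to the group means. Correlations used log2 CPM minus the group mean, with 100000 permutations of libraries within groups, two-sided. Named genes were the 2 highest and 2 lowest correlations among genes averaging at least 1 CPM. The edgeR steps were tested on simulated data. Alternatives included DESeq2 1.42.0 and limma 3.58.1 (voom with a quality weight for each library). The spread behind each p-value is that between half-sib fetuses, each from its own dam.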

Additional observations from a re-analysis of the deposited data

Results flagged for a closer look

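In 48 checks of single groups, 3 held a library far from the others of its group, near the 5% of groups that chance alone gives. ENSBTAG00000031358, positively correlated with LPL within groups, stood at 64.1 CPM in VTM_MG replicate 1, the liver with the highest LPL of that group. ENSBTAG00000015182, negatively correlated with LPL within groups, stood at 136 CPM in NoVTM_LG replicate 7, the liver with the lowest LPL of that group. Both genes were picked for their correlation with LPL in these livers, so sharing an extreme liver with LPL is not separate evidence. In VTM_MG replicate 4, 17801 genes were detected, more than in the other VTM_MG libraries. LPL itself had no such library in any of the 4 groups.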

How the results depend on the processing

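The difference of LPL by gain, given without a test, ran from -0.67 to -0.56 over the 38 other settings. Those settings refit the same counts that chose the gene, so they do not test the difference. The effect of supplementation averaged over gain and at low gain, and the interaction, kept their direction and did not pass after adjustment in any setting. With each library left out in turn the values ran from -0.16 to -0.09 averaged over gain, from -0.37 to -0.22 at low gain and from 0.26 to 0.42 for the interaction. With the first principal component added to the model, a setting chosen after seeing the data, they were -0.09 averaged over gain, -0.18 at low gain and 0.18 for the interaction. At moderate gain the effect ran from -0.033 to 0.11 with single libraries left out and was -0.0039 with that component added. For genes with a positive slope on LPL the count was 0 in all 31 fits that left out 1 library, 6 in DESeq2 and 15 without group means. For a negative slope it was 0 to 1 with single libraries left out (1 without NoVTM_LG replicates 1, 3 or 4, VTM_LG replicates 5 or 6, or VTM_MG replicate 7, each singly), 1 at an adjusted p of 0.10, 3 with no filter on low counts and 7 in DESeq2; the cause was not tested. The count of genes at an unadjusted p under 0.05 was 803 without VTM_LG replicates 4 and 7, 868 with the first component in the model, 614 in MG libraries alone and 1895 in LG libraries alone. No paired analysis was run, because each fetus came from its own dam and the labels name no pairs between groups.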
